A study of Mus musculus with 2 samples.

Results

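The genes described here carry out replication licensing and DNA synthesis. They are 40 genes chosen by symbol out of the 31055 features of a single-cell RNA sequencing study of mouse medulloblastoma, and all 40 had UMIs (unique molecular identifiers, each standing for 1 captured RNA molecule) in both libraries. The tumours arose in Math1-Cre;SmoM2fl/fl mice. Here Cre, made under the Math1 promoter, acts in cerebellar granule neuron precursors and their descendants, where it turns on SmoM2, a form of Smoothened that signals without ligand. The tumour cells of 1 library had received FLASH protons, given at a very high dose rate, and those of the other had received standard protons. The sample labels give 5 Gy for both groups and the series design gives 10 Gy. The sources used here do not give when cells were taken after irradiation, how old the mice were or how many were used. No unirradiated library was analysed here. With 1 library per group there is no test between groups. Every interval below is a 95% interval that covers counting error only.

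In G1, the origin recognition complex, Cdc6 and Cdt1 load the ring-shaped MCM helicase onto DNA, which licenses origins for a round of replication. At the start of S phase, cyclin E and other kinase activities help to turn loaded helicases into active ones by adding Cdc45 and the GINS complex, and polymerases, the sliding clamp and the enzymes of nucleotide supply then carry synthesis forward. Many of these genes are known targets of E2F factors. In the cerebellum they are known from dividing granule neuron progenitors, which SHH signalling drives, and they are turned down as granule neurons leave the cycle.

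After filtering (at least 500 genes and at most 10% mitochondrial UMIs) and removal of likely doublets, 9506 FLASH cells (median depth 5212 UMIs) and 7888 standard cells (median depth 5590.5 UMIs) remained. The libraries shared 46 barcodes, 21 of them among kept cells. The members made up 178886 UMIs in the FLASH library and 149808 in the standard library, with 733 to 28181 and 644 to 23308 UMIs per gene. Cells were clustered without the 40 genes and clusters were named from lists that hold none of them. A gene that moves with the members could still shape a cluster, so differences between classes are descriptions. The class called G1/S-like was compared with progenitor- and neuron-like clusters alone. It had 4 G1/S markers raised by a log2 of at least 1, and its other listed markers fell short of that. Ung, Mcm6, Mcm3, Hells, Cdc6 and Mcm4 were among its 10 leading genes, and the muscle genes Mylpf, Tnnc2 and Myl1 were there through few cells (93.0% of 484 Mylpf UMIs lay in 1 cell). The other cycle classes were histone-rich S-like, histone-rich G2-like and G2/M-like cells, and a mitosis-like cluster led by Ccnb2 and Cenpa. Levels are a gene's UMIs scaled to 1000000 UMIs of a class and library (CPM). They are not scaled by transcript length, so they are compared between classes and not between genes. Over both libraries, the G1/S list summed to 694 CPM in G1/S-like cells. It summed to 1216 CPM in histone-rich S-like, 777 CPM in histone-rich G2-like and 420 CPM in G2/M-like cells. The summed list thus does not by itself set G1/S-like cells apart as an earlier stage. When cells were classed by their own scores on the lists, 984 of the 1883 G1/S-like cells kept their class. So did 1329 of 1498 histone-rich S-like, 604 of 681 histone-rich G2-like, 608 of 615 G2/M-like and 3033 of 3266 neuron-like cells.

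The summed level of the 40 genes was highest in histone-rich S-like cells and low in neurons. G1/S-like cells had a summed level of 5236 CPM (5183 to 5290) in the FLASH library and 5348 CPM (5286 to 5410) in the standard library, and histone-rich S-like cells had 7352 CPM (7291 to 7414) and 7250 CPM (7181 to 7320). The sums were 4109 and 3836 CPM in histone-rich G2-like cells and 2564 and 2459 CPM in G2/M-like cells. The order of these 4 stages was the same in both libraries. Progenitor-like cells outside the cycle classes were of different kinds: the cluster led by Eln and Cre had 3256 and 3263 CPM, and the cluster led by the Notch and SHH target Hes1 had 1894 and 1878 CPM. Neuron-like cells had 987 CPM (966 to 1009) and 1022 CPM (999 to 1045).

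**Figure D1:**
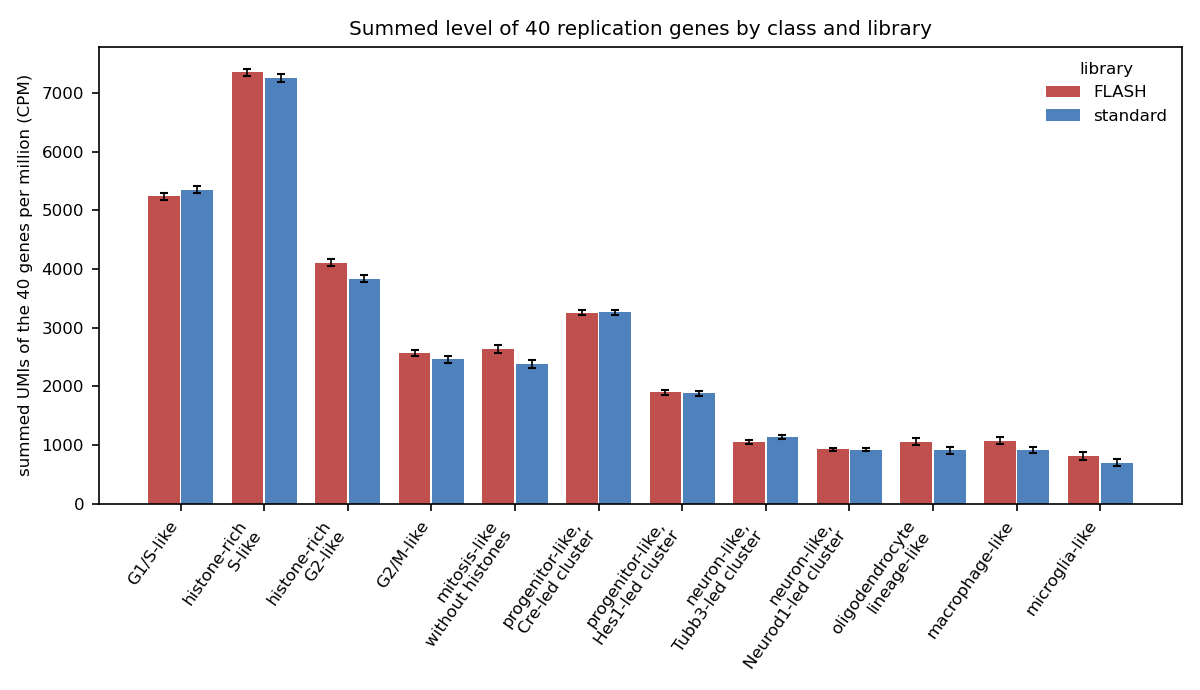
Summed UMIs of the 40 replication genes, scaled to 1000000 UMIs (CPM, vertical axis), in each class, with the FLASH library to the left of the standard library and bars with exact Poisson 95% intervals. Histone-rich S-like cells reach 7352 and 7250 CPM, and neuron-like clusters sit between 921 and 1127 CPM, with oligodendrocyte lineage-, macrophage- and microglia-like cells between 699 and 1070 CPM.

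Single cells were compared after each was thinned to 2000 UMIs, which left out 28 and 27 of the 1097 FLASH and 786 standard G1/S-like cells and 111 and 71 of the 1785 and 1481 neuron-like cells. The median cell held 8 FLASH and 9 standard member UMIs in the G1/S-like class, 15 and 14 in the histone-rich S-like class, 8 and 7 in the histone-rich G2-like class, 5 and 5 in the G2/M-like class and 2 and 2 in the neuron-like class. The G1/S-like class was the widest, with 2 member UMIs at the 10th percentile and 20 and 21 at the 90th. It therefore mixed cells with few and with many replication transcripts. At least 10 member UMIs were held by 44.4% and 48.7% of G1/S-like cells, 84.6% and 83.6% of histone-rich S-like cells and 17.2% and 17.1% of progenitor-like cells. The same measure gave 3.30% and 4.68% of G2/M-like cells. Without thinning, at least 10 member UMIs were held by 75.1% and 77.1% of G1/S-like cells and by 90.5% and 92.1% of G2/M-like cells, whose depth was greater.

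Members differed in where they peaked. Across the G1/S-like, histone-rich S-like, histone-rich G2-like and G2/M-like classes, 31 of 40 were highest in histone-rich S-like cells in both libraries and 7 were highest in G1/S-like cells in both (Ung, Cdca7, Mcm6, Mcm4, Mcm3, Mcm5 and Mcm2). Over the 7054 genes that passed a filter on level, 18% were highest in histone-rich S-like cells and 23.9% in G1/S-like cells. With the members among the genes used for clustering, 11 members were highest in histone-rich S-like cells and 25 in G1/S-like cells. Usp1 was highest in histone-rich G2-like cells, and the highest class of Cdc6 differed between the libraries. A difference between stages is called where it was at least 1.5 times in both libraries. By that measure 18 of 40 members were higher in histone-rich S-like than in G1/S-like cells, against 6.96% of the 6777 genes that passed a filter of 100 UMIs over the sums and 20 CPM in 1 of them. Only Ung was lower, against 2.86% of those genes, and all 40 members passed the filter. Dscc1 was just inside the limit of 1.5 times, with log2 ratios of 0.93 and 0.60, and Wdr76 was just outside it, with 0.57 and 0.58.

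The number called depended on the setting, and it lay between 1 and 27 over the alternatives tried. Every alternative that re-formed the classes and still had a G1/S-like class gave fewer than the main setting. Higher numbers came only where the classes were kept and the counts were thinned or scaled per cell. The order of the members among themselves moved less. Spearman's rank correlation between the members' log2 ratios (histone-rich S-like over G1/S-like, mean of both libraries) and those under 7 alternatives lay between 0.895 and 1, where 1 belongs to mean UMIs per cell, which keeps the order by construction. Under all settings 16 members stayed below the members' median and 15 above it, Ung was lowest and E2f8 was highest. Between the FLASH and the standard library, the rank correlation over the 40 members was 0.94. These are descriptions across genes, which share cells and depth.

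**Figure D2:**
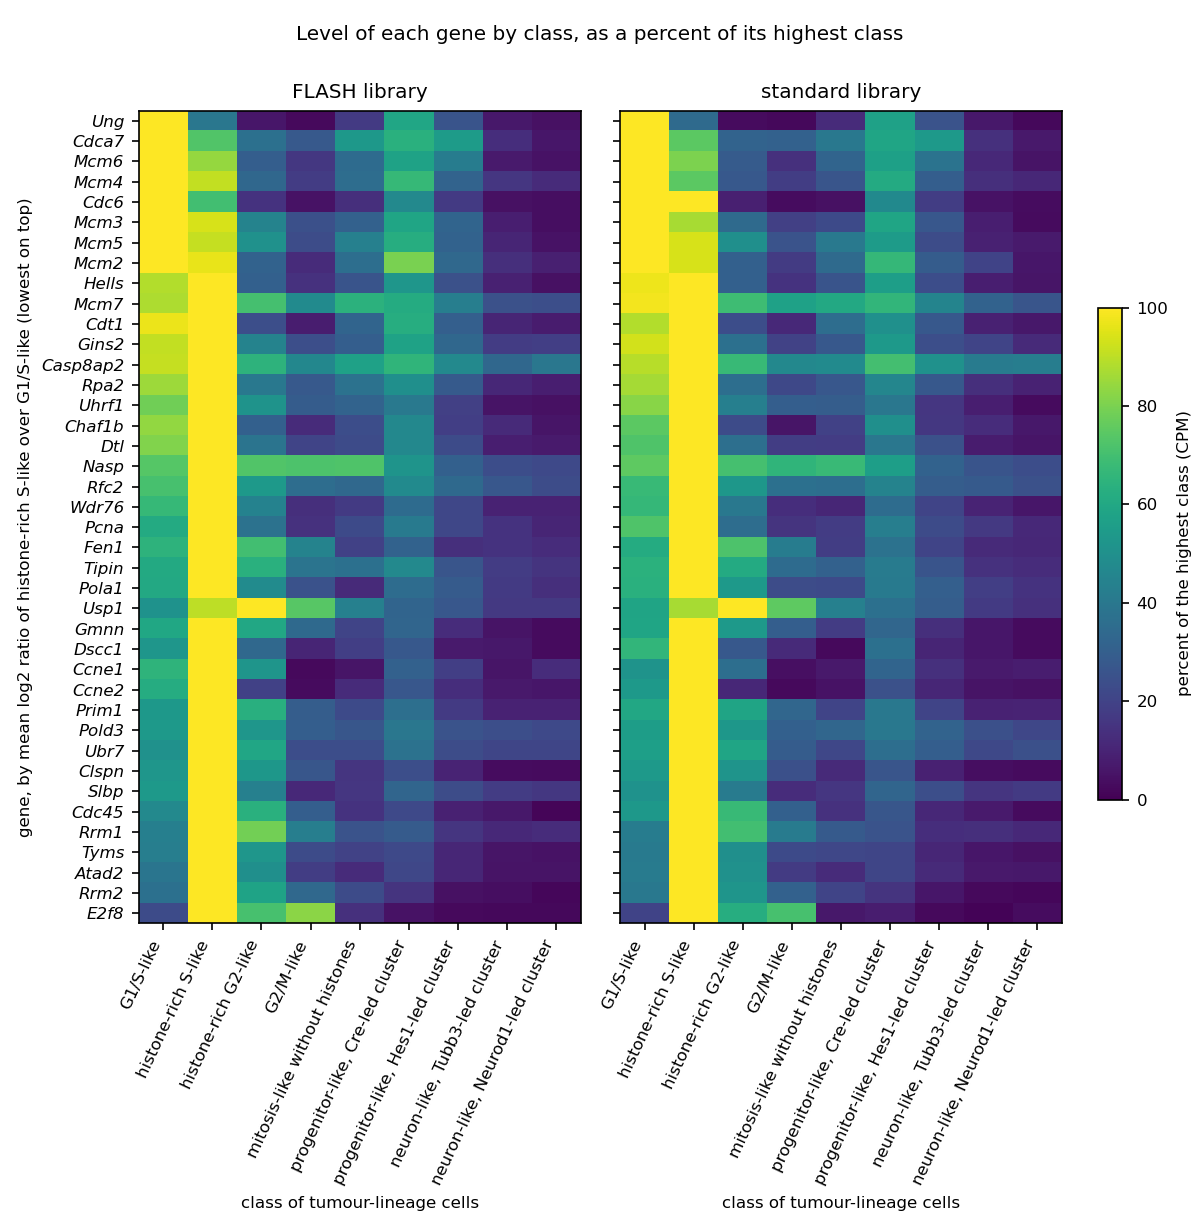
Level of each gene (CPM) as a percent of its highest class among the tumour-lineage classes shown, in the FLASH library (left) and the standard library (right). The nuclear-RNA-rich and Meis2-led clusters of the tumour lineage are left out. Genes are ordered from the lowest to the highest log2 ratio of histone-rich S-like over G1/S-like cells. The brightest class is G1/S-like for Ung, Cdca7 and most Mcm genes, histone-rich S-like for most others and histone-rich G2-like for Usp1.

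Licensing genes stood in the early part of this order. 8 of the 9 were not called in either direction between histone-rich S-like and G1/S-like cells, and the sum of the 9 differed by log2 0.01 (-0.03 to 0.05) in the FLASH library and -0.07 (-0.11 to -0.02) in the standard library. Mcm6, a subunit of the MCM helicase, had 248, 208, 74.3 and 40.4 CPM in G1/S-like, histone-rich S-like, histone-rich G2-like and G2/M-like cells of the FLASH library and 254, 205, 73.4 and 35.5 CPM in those of the standard library. Its sister subunits had log2 ratios of histone-rich S-like over G1/S-like cells of -0.14 and -0.42 (Mcm4), -0.09 and -0.20 (Mcm3), -0.13 and -0.09 (Mcm5), -0.05 and -0.09 (Mcm2) and 0.19 and 0.02 (Mcm7). 5 of the 6 MCM subunits thus lay below 0 in both libraries under the main setting. For Mcm2 and Mcm5 the intervals of the level in the 2 classes overlapped in both libraries. Mcm7 lay above 0 here, but under 7 alternatives it lay below 0 in 2 in the FLASH library and in 5 in the standard library. Mcm3, Mcm4, Mcm5 and Mcm6 each lay above 0 in 1 of the 7 in each library. Mcm2 did so in 2 in the FLASH library and in 1 in the standard library.

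Among the loaders of the helicase, Cdc6 had 60.9, 42.4, 8.93 and 2.89 CPM over these 4 stages in the FLASH library and 54.8, 54.98, 4.94 and 1.78 CPM in the standard library. Its log2 ratio of histone-rich S-like over G1/S-like cells was -0.52 (-0.74 to -0.31) in the FLASH library and 0.00 (-0.23 to 0.24) in the standard library. Under 7 alternatives the ratio stayed below 0 in the FLASH library and ran from -1.49 to -0.12. In the standard library it was below 0 in 6 of them and ran from -1.03 to 0.46. The sign of the Cdc6 ratio in the standard library thus depended on the setting. Cdt1, the other loader, had 57.4, 59.2, 14.2 and 4.81 CPM in the FLASH library and 48.6, 54.8, 12.96 and 6.40 CPM in the standard library. Gmnn encodes geminin, the inhibitor of Cdt1 that blocks relicensing after origins have fired. It was the only licensing member called higher in histone-rich S-like cells, with 124 against 73.9 CPM in the FLASH library and 125 against 73.4 CPM in the standard library. The loaders and their inhibitor thus took different places, with Cdc6 at rank 5, Cdt1 at rank 11 and Gmnn at rank 26 of the 40.

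Genes of origin firing and of the fork stood later, with 6 of 10 called higher in histone-rich S-like cells and 0 lower. The sum of the 10 differed by log2 0.65 (0.60 to 0.69) in the FLASH library and 0.56 (0.50 to 0.61) in the standard library. Cdc45, which completes the active helicase, had 80.0 CPM in histone-rich S-like against 37.6 CPM in G1/S-like cells of the FLASH library and 74.99 against 40.1 CPM in the standard library. Gins2, a subunit of the GINS complex that joins the helicase with Cdc45, had 81.04 against 73.6 CPM and 83.5 against 77.7 CPM, a difference within counting error. These partners in the active helicase thus stood apart in the order, at ranks 35 and 12. The other genes called higher were Prim1, the catalytic subunit of primase (0.91 and 0.73), Pold3, an accessory subunit of DNA polymerase delta (0.89 and 0.84), Dscc1, part of an alternative clamp loader (0.93 and 0.60), Pola1, the catalytic subunit of DNA polymerase alpha (0.73 and 0.66), and Fen1, the flap endonuclease of Okazaki fragments (0.63 and 0.70). Pcna, the sliding clamp, passed 1.5 times in the FLASH library alone (0.71 and 0.47). Rfc2, a subunit of the main clamp loader, had 0.49 and 0.57, and Rpa2, a subunit of the protein that coats single-stranded DNA, had 0.23 and 0.21.

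Rrm1, Rrm2 and Tyms, which supply nucleotides, stood at the late end, at ranks 36, 39 and 37. Rrm2, the regulated subunit of ribonucleotide reductase, had 105, 285, 165 and 95.9 CPM over the 4 stages in the FLASH library and 118, 295, 154 and 91.3 CPM in the standard library, with log2 ratios of histone-rich S-like over G1/S-like cells of 1.43 (1.31 to 1.56) and 1.32 (1.19 to 1.45). Its partner Rrm1 had ratios of 1.21 and 1.25, and Tyms, which makes thymidylate, had 1.22 and 1.27. Ung, which is grouped with them here and stood at rank 1, lies at chr5:114130386-114139323 on the plus strand of mm10 and encodes uracil-DNA glycosylase, which removes uracil from DNA. It had 105, 41.7, 6.57 and 2.57 CPM over the 4 stages in the FLASH library and 101, 35.1, 3.09 and 2.13 CPM in the standard library. The intervals of its level in G1/S-like, histone-rich S-like and later cells did not overlap in either library, while those in histone-rich G2-like and G2/M-like cells did, on 6 to 25 UMIs. Its ratios of histone-rich S-like over G1/S-like cells of -1.34 (-1.53 to -1.14) and -1.53 (-1.77 to -1.29) were the lowest of the 40. After thinning, a Ung UMI was seen in 5.62% and 5.96% of histone-rich S-like cells and in 17.5% and 16.6% of G1/S-like cells, against 2.88% and 1.40% of microglia- and macrophage-like cells.

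Of 10 genes of chromatin assembly and DNA methylation, 3 were called higher in histone-rich S-like cells. Atad2, a bromodomain ATPase of replicating chromatin, had 424 against 166 CPM in the FLASH library and 384 against 160 CPM in the standard library. Slbp, which binds the stem-loop of histone mRNAs, had log2 ratios of 0.88 and 0.97, and Ubr7, a ubiquitin ligase that acts on histone H2B, had 0.98 and 0.82. Cdca7, the partner of the remodeler Hells, was at the early end instead, with 119 against 163 CPM and 138 against 184 CPM (log2 -0.46 and -0.42). Hells itself had 0.18 and 0.03. Between these ends lay Casp8ap2, which acts in histone gene transcription (0.14 and 0.16), Chaf1b of the chromatin assembly factor CAF-1 (0.26 and 0.42), Uhrf1, which maintains DNA methylation (0.35 and 0.28), the histone H3 and H4 chaperone Nasp (0.44 and 0.41) and the WD-repeat gene Wdr76.

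Of 7 cyclin, E2F and checkpoint genes, 5 were called higher in histone-rich S-like cells and 0 lower. E2f8, at chr7:48866429-48881596 on the minus strand of mm10, encodes an atypical E2F that represses E2F targets. It had 12.6, 55.05, 39.1 and 45.6 CPM over the 4 stages in the FLASH library and 12.5, 62.3, 38.9 and 44.1 CPM in the standard library. It rested on 88 and 68 UMIs in G1/S-like cells, and its log2 ratios of 2.12 (1.79 to 2.47) and 2.31 (1.94 to 2.71) were the highest of the 40. The cyclin E genes had 0.62 and 0.96 (Ccne1) and 0.69 and 0.90 (Ccne2). The checkpoint adaptor Clspn had 0.93 and 0.90, and the fork protection gene Tipin had 0.71 and 0.65. Usp1, the deubiquitinase of PCNA and FANCD2, had 0.82 and 0.57, and Dtl, the substrate receptor that marks Cdt1 for destruction, had 0.30 and 0.46.

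**Figure D3:**
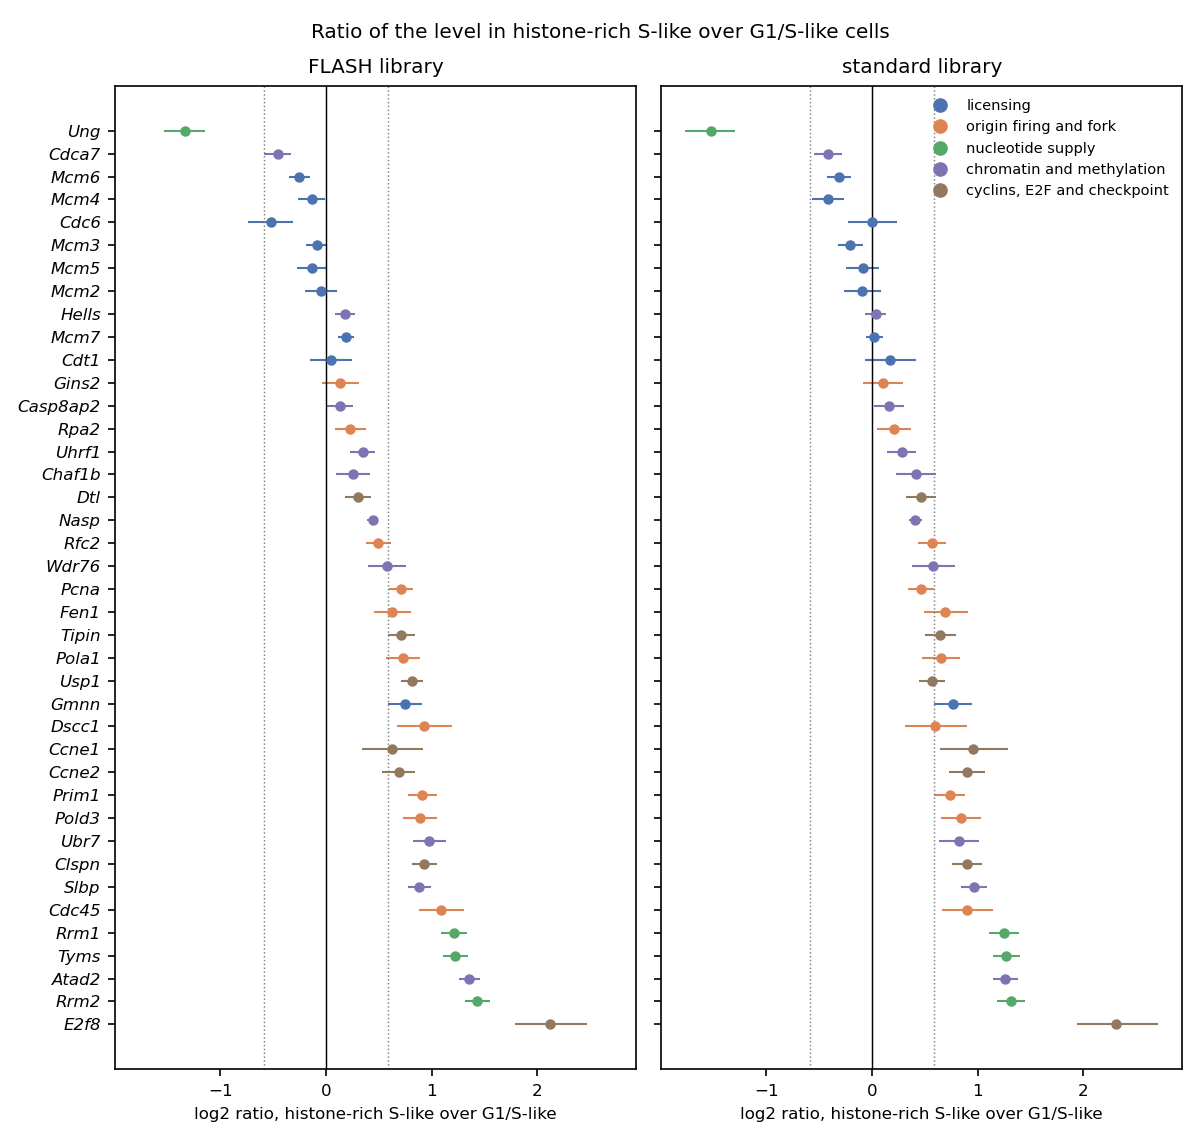
Log2 ratio of the level in histone-rich S-like over G1/S-like cells for each gene in the FLASH library (left) and the standard library (right), with 95% intervals, coloured by role; dotted lines mark 1.5 times in each direction. Licensing genes other than Gmnn lie between -0.52 and 0.19, Ung stands apart at -1.34 and -1.53, and E2f8 stands apart at 2.12 and 2.31.

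Promoters of members from both ends of the order are shown. At the low end only genes with an E2F word were taken, and at the high end no such condition was set. The contrast in E2F words between the printed sequences is therefore partly due to this choice. Ung, the lowest in the order, held no E2F word and is not printed. RefSeq promoters on GRCm38.p6, from 250 bases before to 50 bases after each start, were at hand for 31 of the 40 genes. Cdca7, Mcm6 and Cdc6 are the lowest in the order with an E2F word, and Rrm2 and E2f8 are the highest in the order. They lie at chr2:72475969-72476268 (plus strand, Cdca7), chr1:128359656-128359955 (minus strand, Mcm6), chr11:98907901-98908200 (plus strand, Cdc6), chr12:24708004-24708303 (plus strand, Rrm2) and chr7:48881547-48881846 (minus strand, E2f8), and each spans the RefSeq start it was taken around. Capitals mark E2F words and CCAAT words on either strand, and each sequence reads 5′ to 3′ in the direction of its gene.
Cdca7: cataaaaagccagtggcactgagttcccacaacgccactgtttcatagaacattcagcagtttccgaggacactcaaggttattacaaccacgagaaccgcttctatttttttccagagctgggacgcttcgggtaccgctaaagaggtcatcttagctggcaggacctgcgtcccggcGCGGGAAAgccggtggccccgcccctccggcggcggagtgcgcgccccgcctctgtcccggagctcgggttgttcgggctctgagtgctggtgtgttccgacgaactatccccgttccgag
Mcm6: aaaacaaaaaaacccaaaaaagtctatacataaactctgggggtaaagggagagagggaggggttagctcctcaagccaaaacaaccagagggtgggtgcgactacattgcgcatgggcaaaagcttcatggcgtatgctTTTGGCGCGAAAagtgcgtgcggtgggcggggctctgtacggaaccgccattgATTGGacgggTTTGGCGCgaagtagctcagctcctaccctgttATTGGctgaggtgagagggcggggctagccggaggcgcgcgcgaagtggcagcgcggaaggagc
Cdc6: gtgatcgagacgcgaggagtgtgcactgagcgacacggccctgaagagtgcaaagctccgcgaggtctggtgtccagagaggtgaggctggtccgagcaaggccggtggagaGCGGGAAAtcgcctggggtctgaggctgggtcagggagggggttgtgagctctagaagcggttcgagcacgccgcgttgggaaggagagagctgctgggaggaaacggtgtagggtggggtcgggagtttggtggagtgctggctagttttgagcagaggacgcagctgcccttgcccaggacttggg
Rrm2: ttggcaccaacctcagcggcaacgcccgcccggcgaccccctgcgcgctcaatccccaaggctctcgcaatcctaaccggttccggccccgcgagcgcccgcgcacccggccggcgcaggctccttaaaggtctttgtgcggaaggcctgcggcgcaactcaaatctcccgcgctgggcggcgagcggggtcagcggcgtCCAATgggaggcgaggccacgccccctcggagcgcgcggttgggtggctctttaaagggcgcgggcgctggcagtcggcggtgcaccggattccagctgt
E2f8: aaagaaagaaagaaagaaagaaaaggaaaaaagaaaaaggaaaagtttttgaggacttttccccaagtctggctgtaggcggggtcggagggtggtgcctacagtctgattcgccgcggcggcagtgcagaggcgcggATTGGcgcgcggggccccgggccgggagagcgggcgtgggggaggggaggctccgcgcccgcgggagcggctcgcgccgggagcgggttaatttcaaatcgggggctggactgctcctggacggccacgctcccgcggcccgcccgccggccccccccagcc

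The E2F words searched were TTTCCCGC, TTTCGCGC, TTTGCCGC and TTTGGCGC, each on both strands, and overlapping matches were counted. Mcm6 held 3 of them, of which 2 overlap, and 2 CCAAT words (read as ATTGG). Cdca7 and Cdc6 held 1 E2F word each. In another annotation Cdc6 starts at chr11:98907801, so its whole window lies inside the gene there. Rrm2 and E2f8 held no E2F word and 1 CCAAT word each. A gene counted when any of its promoters held a word, and 4 members had 2 promoters. An E2F word was found in 15 of the 31 matched members (48.4%), against 13 of 46 other replication genes (28.3%) and 580 of 19407 genes in all (2.99%). Among the matched members it was found in 4 of the 15 in the upper part of the order (26.7%) and in 11 of the 16 in the lower part (68.8%), where Ung held none. The CCAAT word was found in 10 of 15 and 10 of 16, and in 41.8% of all genes. The cell cycle homology word TTTGAA was found in 6 of 31 members (19.4%) and in 18.5% of all genes. A match is a description of the letters, and a factor may bind sites that these words and this window miss.

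Nearly all members were lower in the later stages. In G2/M-like cells 37 of 40 were at least 1.5 times lower than in histone-rich S-like cells in both libraries, against 8.62% of 6743 genes. The median level in G2/M-like cells was 25.2% of that in histone-rich S-like cells in the FLASH library and 23.7% in the standard library. The cyclin E genes were the lowest, with 2.68% and 4.10% (Ccne1, on 3 and 5 UMIs in G2/M-like cells) and 2.90% and 2.59% (Ccne2). Ung had 6.15% and 6.07%, Cdc6 6.81% and 3.23%, and Cdt1 8.13% and 11.7%. The exceptions were E2f8 (82.8% and 70.8%), Usp1 (82.4% and 86.7%) and Nasp (72.2% and 65.6%), and Mcm7 (47.7% and 57.0%) and Casp8ap2 (46.2% and 46.8%) came next. Usp1 had 156, 275, 306 and 227 CPM over the 4 stages in the FLASH library and 171, 254, 293 and 220 CPM in the standard library. The loaders of the helicase and the cyclins were thus nearly gone in G2/M-like cells, while the repressor E2f8 kept most of its level.

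A smaller cluster of 331 FLASH and 254 standard cells, led by Ccnb2, Cenpa and Cdc20, differed from G2/M-like cells in these genes. Its summed level of 2631 and 2377 CPM was near that of G2/M-like cells, but its makeup was not the same. 9 members were at least 1.5 times higher than in G2/M-like cells in both libraries (Ung, Cdt1, Ccne2, Chaf1b, Mcm2, Mcm6, Ccne1, Hells and Mcm5), against 1.01% of 6558 genes. 5 of the 9 passed the filter on level, and Ung, Cdt1, Ccne2 and Ccne1 did not. Mcm6 had 86.1 against 40.4 CPM in the FLASH library and 82.1 against 35.5 CPM in the standard library, and Mcm2 had 37.1 against 12.8 CPM and 34.3 against 17.1 CPM. 6 members were lower (E2f8, Fen1, Cdc45, Clspn, Usp1 and Gmnn), against 6.95% of those genes. E2f8 had 7.74 against 45.6 CPM in the FLASH library and 4.13 against 44.1 CPM in the standard library. The members higher in this cluster thus included the early peaking Ung and Mcm6, but also Ccne2, at rank 29 of the order. Ccne2 rested on 29 and 12 UMIs against 11 and 11 in G2/M-like cells, and its level intervals overlapped in the standard library. Ccne1, at rank 28, rested on 4 and 5 UMIs against 3 and 5. Its level intervals overlapped in both libraries. In G2/M-like cells Ung rested on 8 and 6 UMIs. The lower members included E2f8 and Cdc45 from the late end. Top2a, a topoisomerase gene whose transcript is known to peak in G2 and mitosis, had 102 and 121 CPM in this cluster, against 1461 and 1360 CPM in G2/M-like cells. The cluster had a median of 5655 and 6769 UMIs per cell, against 9582 and 9692 in G2/M-like cells, and it was not separate when doublets were kept. The part of depth in these differences was not tested.

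In neuron-like cells all 40 members were at least 2 times lower than in G1/S-like cells in both libraries. G1/S-like cells passed 2 times over neuron-like cells in 8.90% of 7169 genes, and 39 of the members passed the filter on level (E2f8 did not). The summed level was 18.8% of that in G1/S-like cells in the FLASH library and 19.1% in the standard library. Neuron-like cells with 0 UMIs of Mki67, Top2a and Cenpf, 1312 and 1040 cells, still had 17.9% and 18.5%. The median over members was 11.9% and 12.5%, and 14 members were under 10% in both libraries. The lowest in the mean of both libraries were Cdc6 (4.01% and 4.01%, on 20 and 17 UMIs), Ung (5.55% and 4.34%), Mcm3 (5.98% and 5.65%), Clspn (5.82% and 6.01%) and Rrm2 (7.41% and 5.37%). The highest in that mean were Casp8ap2 (40.02% and 47.0%), Pold3 (42.7% and 40.6%), Ubr7 (40.8% and 40.7%), Rfc2 (35.2% and 39.3%) and Nasp (30.9% and 33.2%). The residue was thus uneven among the members.

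Free RNA from broken cells can give such UMIs in cells that do not make a transcript, so other classes were read in the same way. The summed level was 15.4% and 13.1% of that in G1/S-like cells in microglia-like cells, 20.4% and 17.0% in macrophage-like cells and 20.03% and 16.9% in oligodendrocyte lineage-like cells. Smaller classes varied more, with 866 and 2038 CPM in endothelial-like cells (48 and 35 cells), 1972 and 976 CPM in erythroid-like cells (36 and 29 cells) and 1272 and 1849 CPM in other leukocyte-like cells (110 and 73 cells). The summed level in neuron-like cells, 987 and 1022 CPM, lay within the range over these classes, whose upper end came from the smaller ones. In the FLASH library it lay above microglia-like (806 CPM) and below macrophage-like cells (1070 CPM), and its interval overlapped that of oligodendrocyte lineage-like cells. In the standard library it lay above microglia-like (699 CPM), oligodendrocyte lineage-like (904 CPM) and macrophage-like cells (912 CPM), with no overlap of intervals. How much of it came from free RNA was not tested. Mki67, a marker of dividing cells, had 31.6 and 39.4 CPM in neuron-like, 55.8 and 47.9 CPM in microglia-like and 74.0 and 74.3 CPM in macrophage-like cells, and its part in these levels was not tested. 4 members had more in neuron-like than in the microglia- and macrophage-like cells combined, with intervals above 0 in both libraries, against 54.9% of the 7740 genes that passed the filter on level (22 members passed it). These were Mcm7 (108 against 41.4 CPM and 129 against 41.2 CPM), Nasp (223 against 84.3 CPM and 234 against 92.6 CPM), Usp1 (log2 0.51 and 0.62) and Casp8ap2 (0.38 and 0.95). After thinning, a Nasp UMI was seen in 36.7% and 35.5% of neuron-like cells, against 15.9% and 14.0% of microglia- and macrophage-like cells. For 8 members, Mcm3, Rrm2, Uhrf1, Gmnn, Cdt1, Rpa2, Atad2 and Pcna, neuron-like cells had less, with intervals below 0 in both libraries, against 24.8% of those genes. Of these 8 members, 6 passed that filter. For Mcm3 the log2 ratios were -2.15 and -1.73.

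**Figure D4:**
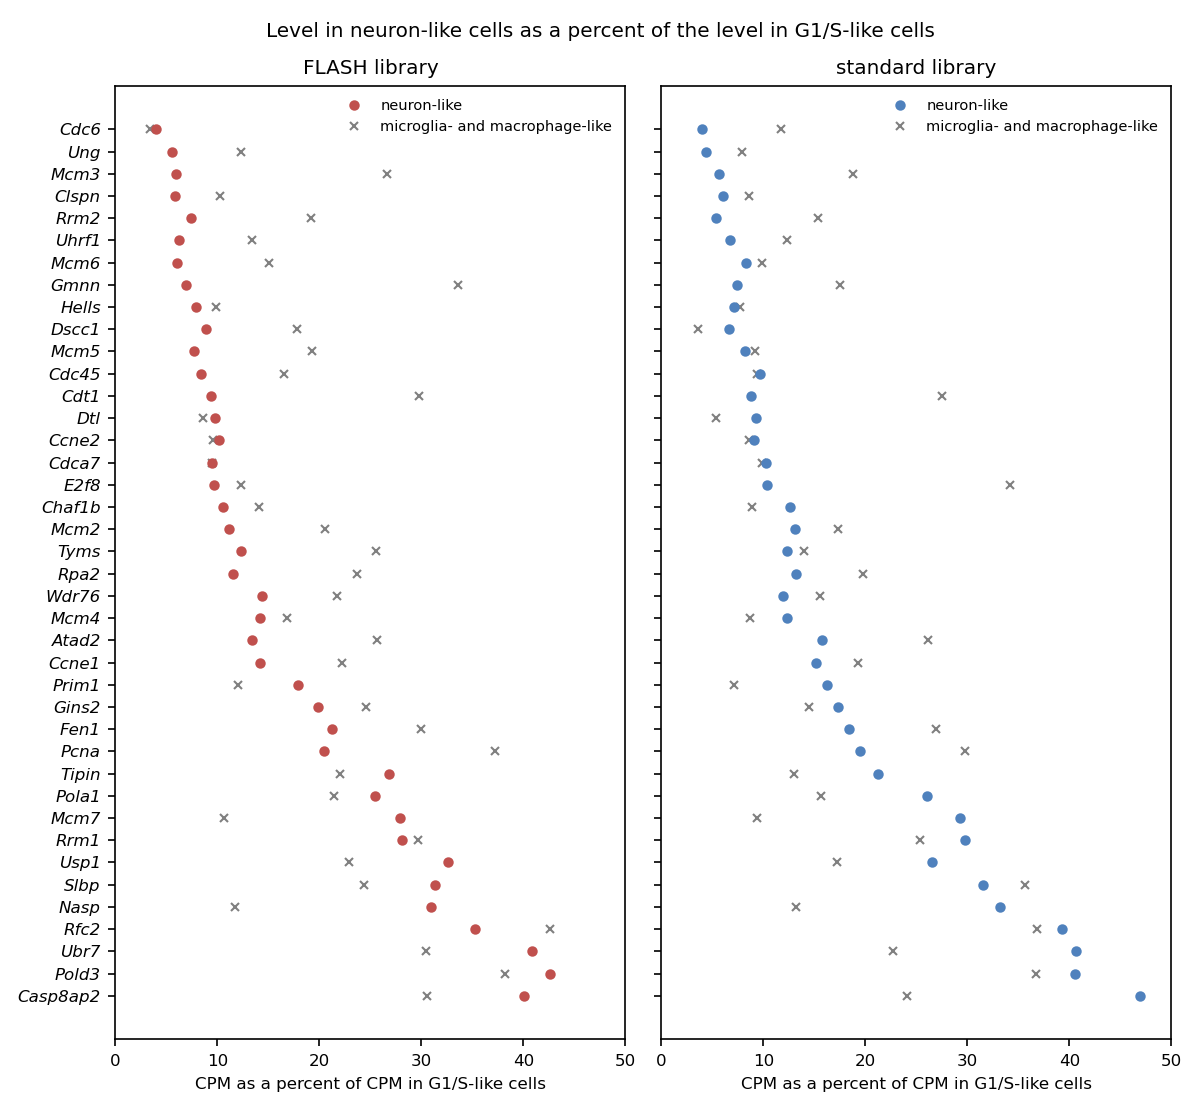
Level of each gene in neuron-like cells (circles) and in microglia- and macrophage-like cells together (crosses), each as a percent of its level (CPM) in G1/S-like cells, in the FLASH library (left) and the standard library (right). Neuron-like percents run from 4.01 for Cdc6 to 42.7 (FLASH) and 47.0 (standard), and Mcm7 and Nasp lie well to the right of their crosses in both libraries.

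Within neuron-like cells, 31 members had less in the cluster led by Neurod1 than in the cluster led by Tubb3 in both libraries, against 33.6% of the 6813 genes that passed the filter on level. 7 of them had both intervals below 0, against 12%. Of the 18 members that passed that filter, 13 had less in both libraries and 4 had both intervals below 0. Mcm3 had 7.71 against 18.3 CPM in the FLASH library and 6.60 against 18.8 CPM in the standard library. Cdca7 had 9.64 against 21.5 CPM and 12.7 against 25.4 CPM. At least 10 member UMIs were held by 0.717% of FLASH neuron-like cells (12 of 1674) and 0.780% of standard ones (11 of 1410) after thinning, and by 5.88% and 9.52% without it. 16.5% and 15.9% held 0 after thinning, against 37.3% and 29.5% of microglia-like and 29.1% and 24.6% of macrophage-like cells. Median depths before thinning were 4511 and 5219 UMIs in neuron-like, 3550 and 3782 in microglia-like and 8450.5 and 8103 in macrophage-like cells.

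The FLASH and standard libraries differed little in these genes. In all tumour-lineage cells, the summed level was 3699 CPM in the FLASH library and 3512 CPM in the standard library, a log2 ratio of 0.07 (0.06 to 0.09), and 33 of 40 members had a ratio above 0, against 53.5% of the 6445 genes that passed the filter. The members' median was 0.09, and that of all these genes was 0.01. No member was 1.5 times apart, as 0.124% of those genes were. G1/S-like cells were 14.9% (14.1 to 15.8) of FLASH and 13.1% (12.3 to 14.0) of standard tumour-lineage cells, and histone-rich S-like cells were 12.2% (11.4 to 12.9) and 10.1% (9.35 to 10.9). With clusters held to the same mix the log2 ratio of the sum was 0.01, and 24 of 40 members lay above 0, as did 3633 of the 6445 genes. With mean UMIs per cell in place of CPM the ratio of the sum was -0.04. The direction of the summed difference thus depended on the scale, and its size was smaller in the same mix.

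By gene, the largest tumour-lineage ratios were those of the loader Cdt1 (31.1 against 25.4 CPM, log2 0.29, 0.17 to 0.41), Ubr7 (64.0 against 53.0 CPM, 0.27, 0.19 to 0.35), Ung (40.2 against 35.3 CPM, 0.19), Uhrf1 (86.5 against 76.2 CPM, 0.18) and Tipin (92.6 against 82.5 CPM, 0.17). The smallest were those of Cdca7 (89.2 against 93.8 CPM, -0.07), Ccne2 (44.5 against 46.5 CPM, -0.06), Mcm7 (279 against 291 CPM, -0.06), Hells (136 against 141 CPM, -0.05) and Ccne1 (14.9 against 15.1 CPM, -0.03). In the same mix Cdt1 kept 0.23 and Ubr7 0.20. Within G1/S-like cells the sum had a ratio of -0.03 (-0.05 to -0.01), with 21 members above 0 and 19 below, and within histone-rich S-like cells it had 0.02 (0.00 to 0.04), again with 21 above and 19 below. Cdt1 had 57.4 against 48.6 CPM in G1/S-like cells and 59.2 against 54.8 CPM in histone-rich S-like cells. Pcna had 134 against 160 CPM in G1/S-like cells (-0.26, -0.40 to -0.13), and Cdc6 had 42.4 against 54.98 CPM in histone-rich S-like cells (-0.38, -0.60 to -0.15).

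No member was 1.5 times apart between the libraries in G1/S-like, histone-rich S-like or neuron-like cells, where 0.549%, 0.378% and 0.109% of genes were. The numbers were 2 in histone-rich G2-like cells (Ung and Cdc6), against 1.27% of genes, and 3 in G2/M-like cells (Chaf1b, Cdc6 and Ccne1), against 1.32%. They were 5 in the mitosis-like cluster (Dscc1, Cdc6, Ccne2, E2f8 and Pola1), against 1.84%, and 1 in progenitor-like cells (E2f8), against 0.126%. None of those members passed the filter on level there. The widest of them, Dscc1 in the mitosis-like cluster, had 9.29 against 1.18 CPM. Pola1 in that cluster had 14.96 against 26.6 CPM (-0.82, -1.56 to -0.12). It failed the filter on its UMIs, 29 and 45, and not on its CPM. The intervals of Dscc1, Cdc6 and Ccne2 there and of Chaf1b in G2/M-like cells also left out 0. The members past 1.5 times thus rested on few UMIs in the classes concerned.

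**Figure D5:**
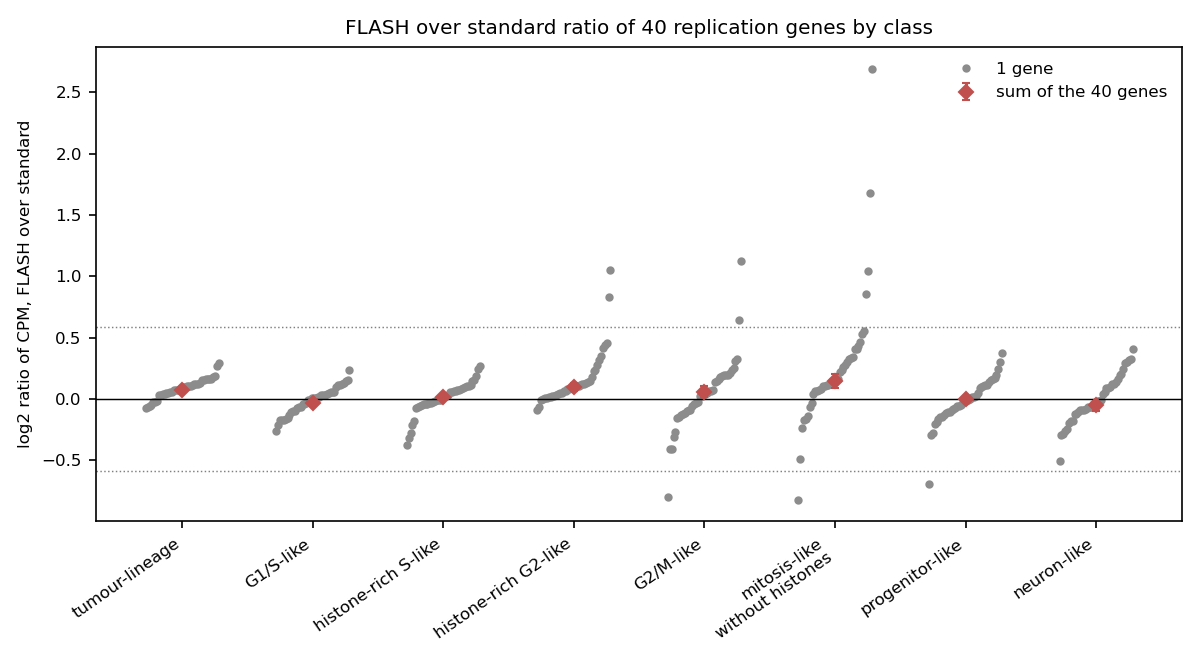
Log2 ratio of the level in the FLASH library over the standard library in each class, with 1 grey point per gene and a diamond with its 95% interval for the sum of the 40 genes; dotted lines mark 1.5 times in each direction. The sums lie between -0.05 and 0.15. Points outside the dotted lines stand in 4 classes, and each is a member that did not pass the filter on level in that class.

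Of 56 other replication genes, 45 were highest in histone-rich S-like cells in both libraries, 19 were called higher there than in G1/S-like cells and 1 lower, and 43 were called lower in G2/M-like cells. Dbf4, the activator of the Cdc7 kinase, was highest in G2/M-like cells, with 237 CPM in the FLASH library and 214 CPM in the standard library against 97.2 and 94.3 CPM in histone-rich S-like cells. In neuron-like cells the median of the list was 30.7% and 29.8% of the level in G1/S-like cells, against 11.9% and 12.5% for the 40 members, and 38 were called at least 2 times lower. The lowest were the histone chaperone Asf1b (5.93% and 8.92%), the cohesin acetyltransferase Esco2 (7.84% and 7.26%), thymidine kinase Tk1 (9.12% and 6.07%) and the initiation factor Mcm10 (9.36% and 6.16%). The highest were the origin recognition subunits Orc4 (119% and 117%) and Orc5 (77.4% and 95.8%), the polymerase delta subunit Pold4 (112% and 103%) and the dNTP hydrolase Samhd1 (64.1% and 86.5%). In the FLASH over standard comparison 47 of the 56 lay above 0 in tumour-lineage cells, with a median of 0.06.

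Over 22 points, 1 for each tumour-lineage cluster and library, Pearson's r between a gene's log2 level and the mean of the members was computed for 5249 genes outside both lists. The closest were Mms22l, which acts at stalled forks (0.974), Slfn9 (0.967), the exonuclease gene Exo1 (0.956), Syce2 (0.952) and Tfdp1, a dimer partner of E2F factors (0.951). Among the members, Uhrf1 followed the mean of the others most closely (0.967), and E2f8 (0.638), Ung (0.654) and Usp1 (0.723) least. The points share libraries and depth, so these values are descriptions.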

How the data were processed

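The deposited matrices of the 2 libraries hold whole-number UMI counts per gene and cell barcode, which the authors made with Cell Ranger. The version is 6.1.2, per the file headers, and the build is mm10, per the submitters' processing notes. The sources used here do not give the annotation release. Barcodes with at least 500 genes and at most 10% mitochondrial UMIs were kept. Scrublet's automatic limit marked 0 FLASH and 1 standard barcode as doublets and had not worked, so the highest scores were removed at 0.8% per 1000 cells (860 FLASH and 573 standard). Cells were clustered with scanpy 1.11.5 and leidenalg 0.10.2 (2000 variable genes without the members, 30 components, 15 neighbours, resolution 1.0). Clusters were named from marker lists by limits set after the data were seen. Counts were summed per class and library and scaled to CPM. Intervals are 95% and exact: Poisson for levels, conditional binomial for ratios (0.5 added to each count for the ratio) and Clopper-Pearson for shares. Calls on ratios used 1.5 times between libraries or stages and 2 times over neuron-like cells. The scripts were tested on simulated data. No p-value was computed, since each group has 1 library. Named genes are the members by role, the 5 highest and 5 lowest of each pattern, 4 at each end of the other replication genes and the 5 most like the members. Members, gene lists and promoter words were chosen with earlier results of these data known.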

Additional observations from a re-analysis of the deposited data

Results flagged for a closer look

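The summed level of the 40 genes moved in opposite directions between the FLASH and the standard library in different classes. The log2 ratio was -0.030 in G1/S-like and -0.050 in neuron-like cells, and 0.020 in histone-rich S-like, 0.10 in histone-rich G2-like and 0.060 in G2/M-like cells and 0.15 in the mitosis-like cluster. The difference between classes was not tested, and each ratio compares 1 library with 1.

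Members were also seen in barcodes that the classes leave out. Barcodes with under 500 genes held 1735 CPM of the summed members in the FLASH library (2352 barcodes) and 1882 CPM in the standard library (2819 barcodes). Barcodes with at least 500 genes and over 10% mitochondrial UMIs held 3226 CPM (1551 barcodes) and 3152 CPM (1587 barcodes). Barcodes removed as doublets held 3741 CPM (860 barcodes) and 3959 CPM (573 barcodes). Kept cells in clusters of low depth that were given no name held 3306 CPM (1518 FLASH cells) and 3166 CPM (1367 standard cells). They are not counted among the tumour-lineage cells.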

How the results depend on the processing

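The count of 18 members higher in histone-rich S-like than in G1/S-like cells was 5 with doublets kept, 10 with at most 5% mitochondrial UMIs, 1 with the members among the variable genes, 10 at resolution 1.5, 9 with classes from per-cell scores and 5 at 2 times. The 31 members highest in histone-rich S-like cells became 11 with the members among the variable genes. That setting also turned the log2 ratio (FLASH first where there are 2) of Gmnn to -0.061 and -0.21, Ccne1 to -0.41 and -0.13, Ccne2 to -0.35 and -0.22, Dscc1 to -0.27 and -0.46, and Clspn to -0.18 and -0.19. It turned Pcna to -0.16 and -0.23, and in the standard library alone it turned Cdc45 to -0.073 and Pola1 to -0.10. The cause was not tested.

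The summed level in histone-rich S-like cells was 6809 CPM (FLASH) and 6807 CPM (standard) with doublets kept, 7480 and 7464 CPM with the members among the variable genes, 7157 and 7079 CPM with each library clustered by itself, and 7560 and 7552 CPM from scores. It was 7228 CPM with at most 5% mitochondrial UMIs (FLASH) and 7328 CPM with at least 1000 genes (standard).

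G1/S-like shares of tumour-lineage cells were 9.09% (FLASH) and 8.45% (standard) with doublets kept, 15.8% and 14.9% with at most 5% mitochondrial UMIs, 5.00% and 5.06% with the members among the variable genes, 11.7% and 10.0% at resolution 1.5, 16.1% and 14.5% from scores, and 16.1% and 14.5% without the nuclear-RNA-rich and Meis2-led clusters (chosen after seeing the data). Histone-rich S-like shares were 14.4% and 12.5% with doublets kept, 14.4% and 12.2% with at most 5% mitochondrial UMIs, 13.1% and 11.2% without those clusters, and 14.0% (FLASH) with each library clustered by itself.

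The neuron-like sum as a percent of G1/S-like cells was 17.6% (FLASH) and 16.7% (standard) with doublets kept, 11.9% and 11.8% with the members among the variable genes, 18.2% and 18.2% at resolution 1.5, 16.2% and 16.1% from scores, 19.9% and 19.9% thinned, 13.6% and 14.4% per cell, and 17.9% and 18.5% in cells without Mki67, Top2a and Cenpf. It was 17.6% (standard) with at most 5% mitochondrial UMIs. The log2 ratio of FLASH over standard for the sum was 0.062 with doublets kept, -0.037 per cell, 0.014 in the same mix and 0.086 without the nuclear-RNA-rich and Meis2-led clusters.

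With at least 1000 genes, or each library clustered by itself, no cluster met the G1/S-like limits. No paired analysis was possible because each group has 1 library. Depth limits the members with few UMIs in small classes.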
